A study of Homo sapiens with 6 samples.

Results

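Long noncoding RNA probes whose signal was lower under both short hairpin RNAs numbered 178 among the 23042 custom long noncoding probes of the array. The members were chosen from the measured values. A probe had to be well above background on both control arrays, a call the scanner software makes for each spot, and 7041 custom probes met that condition. Its mean then had to lie at least 0.8 below the control mean on the log2 scale on the arrays with the shGATA3 label and on the shTCF1 arrays, with all 4 hairpin arrays below both control arrays. These thresholds kept 2.53% of the eligible custom probes, and the differences from control reported for the members are therefore descriptions and carry no test. Levels are log2 intensities minus the 75th percentile of the same array, so a level of 0 is the 75th percentile of all non-control probes, and no level of one probe is compared with that of another as an amount of RNA.

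The cells were RPMI-8402, a human line established from T-cell acute lymphoblastic leukaemia, transduced with lentivirus that carried a control construct, shGATA3 or shTCF1 and sorted for EGFP 48 h later. TCF1 is the product of TCF7, and both GATA3 and TCF1 are transcription factors of early T-cell development whose part in the choice between T-cell and NK-cell fate was the question of the study. Each of the 3 groups had 2 arrays of total RNA labelled with Cy3, described by the study as independent experiments in a single line, and the culture medium and the time of harvest were shared by all of them. On the single GATA3 probe the level was 1.81 and 1.86 on the control arrays and 1.77 and 1.90 on the arrays with the shGATA3 label, a difference of 0.00 ± 0.11 (SE), so the array did not show the knockdown that this label names. The 2 TCF7 probes fell by 1.26 ± 0.10 and 1.43 ± 0.13 (SE) on the shTCF1 arrays (limma, adjusted p = 0.00733 and 0.00902, n = 2 per group), and 1 spot of the first lies within the array arc described later.

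Long noncoding RNAs are transcripts without a recognised protein product. Many are spliced and polyadenylated by the machinery that makes messenger RNA, many stay in the nucleus, and many are degraded soon after synthesis by the nuclear RNA exosome, so that their level is low and depends on decay as much as on transcription. Some act as scaffolds or decoys for proteins, some are host transcripts of small RNAs, and for a large part no function is known. Their expression is often restricted to one lineage or stage.

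All 6 arrays came from 1 slide and 1 scan. The hairpin arrays occupied the first row of the slide and the control arrays the second row, so slide row and treatment cannot be told apart. The 75th percentile of the intensity was 271.4 and 289.7 on the control arrays and 166.2 to 179.5 on the hairpin arrays. The scanner called 30.1% to 35.7% of the custom probes well above background, depending on the array. Of 15 genes expected in a T-cell leukaemia line, 13 were well above background on all 6 arrays, while CD1E and LMO2 were not on any. The summed linear level of the 5 NK-cell markers was 0.68 to 0.84 on the control arrays, 0.55 to 0.62 on the arrays with the shGATA3 label and 0.24 to 1.00 on the shTCF1 arrays, in units of the array's 75th percentile, and KLRD1, KLRF1 and FCGR3A were not well above background on any array. The sums for 6 B-cell markers were 1.22 to 1.32, 1.29 to 1.31 and 1.58 to 1.67 in the same order, with EBF1 below background throughout. For 5 myeloid markers they were 1.22 to 1.34, 1.33 to 1.39 and 1.34 to 1.43, with CEBPA below background throughout, and for 4 erythroid markers 2.71 to 2.93, 3.09 to 3.80 and 4.06 to 4.16, with HBB below background throughout. The part of these cell types in the results was not tested.

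The members were mostly dim probes, and in total RNA fewer cells with a transcript and less of it in each cell cannot be told apart. Their median control level was -2.18 against -1.68 for all eligible custom probes, and 17 of the 178 lay above the array's 75th percentile. The median difference from control was -1.51 on the arrays with the shGATA3 label and -1.62 on the shTCF1 arrays, where all eligible custom probes had medians of 0.11 and 0.15. On the hairpin arrays, 51 members (28.7%) were still well above background on all 4, whereas 82 members (46.1%) were not well above background on any and 45 were on 1 to 3. For the 82 only a lower bound of the fold can be given, because the scanner had no reliable level for them in either hairpin group. That bound ranged from 1.27-fold to 5.33-fold lower on the arrays with the shGATA3 label, with a median of 2.23, and from 1.11-fold to 4.69-fold lower on the shTCF1 arrays, with a median of 1.99. It sets the control mean against the lowest level among well-measured probes of each hairpin array, or the probe's own level where that was higher. Some probes above that limit were still not well above background. ENST00000456559 was one, at -3.44 on shTCF1 replicate 2, where the limit was -3.67. The limit is thus the most generous one, and every bound given here would be smaller with a higher limit. The 51 members measured on all arrays were 1.75-fold to 8.54-fold lower on the arrays with the shGATA3 label and 1.77-fold to 5.63-fold lower on the shTCF1 arrays, with medians of 2.29 and 2.31.

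**Figure D1:**
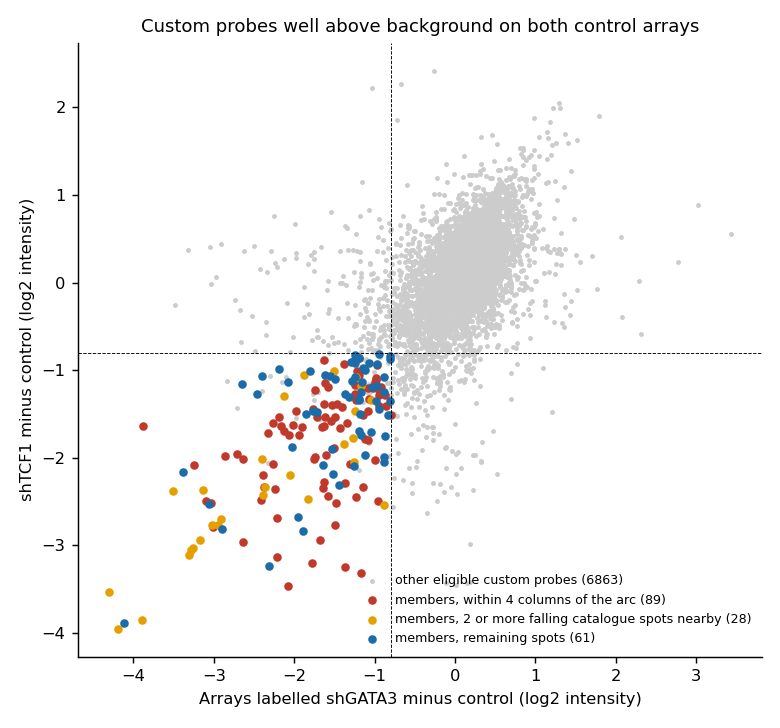
Difference from control in log2 intensity of the 7041 custom probes that were well above background on both control arrays, with the arrays with the shGATA3 label on the x axis and the shTCF1 arrays on the y axis; each point is a probe, both axes share the control arrays, and the dashed lines mark -0.8. The 178 members fill the lower left corner because the rule put them there, and members of the arc, of local clusters and of the remaining spots overlap in that corner.

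The mirrored thresholds, at least 0.8 above control in both hairpin groups with no overlap, held for 60 custom probes, which is 0.852% of the eligible ones. Among catalogue probes, which mostly represent protein-coding genes, 282 of 22746 met the thresholds of the members (1.24%) and 122 met the mirrored ones (0.536%). Among probes well above background on both control arrays, lower ones thus outnumbered higher ones in both kinds of probe. This condition favours lower probes, since a probe that was dim in control cells could not enter. Without it the order turned outside the array arc, where 0.798% of custom spots were lower and 3.29% higher. For catalogue spots there it was 1.02% and 1.71%. These shares include spots below background, whose level on this scale was not equal between the groups. Catalogue spots below background on all 4 hairpin arrays, 16 columns or more from the arc, show this. They had medians of -5.74 and -5.92 on the control arrays and -5.70 to -5.43 on the hairpin arrays. What this adds to the shares was not tested. Within the arc 11.9% of custom spots were lower and 0.627% higher, and 7.46% and 0.533% of catalogue spots. The members came from all main naming classes. Of the 178, 92 carried only a TCONS identifier, the form that transcript assembly programs give to assembled transcripts, 77 only an Ensembl transcript identifier and 9 both, and the shares of eligible probes that were members were 2.80%, 2.48% and 1.42%. No member carried a gene symbol or a RefSeq accession, so each is named by its transcript identifier, and no sequence or genome position is given for it here.

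Many of the members lay on one narrow arc of the array surface. The array is a grid of 384 rows by 164 columns, and the arc ran through all rows, from column 72.0 in row 1 to column 84.1 in row 192 and column 65.5 in row 384. Its course was fitted to catalogue spots alone, after the pattern had been seen. Within 4 columns of it lay 395 eligible custom probes (5.61%) and 89 of the 178 members. In the column nearest the arc 46 of 108 eligible custom probes were members (42.6%), in the next 31 of 99 (31.3%), and beyond 20 columns 72 of 5236 (1.38%). Catalogue spots well above background on both control arrays passed the same thresholds in 13.3% of cases within 1 column of the arc and in 0.941% beyond 20 columns, although their share near the arc is what the fit used. Probes higher under both hairpins were not denser there, with 2 of 395 in the arc (0.506%) and 58 of 6646 outside (0.873%).

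**Figure D2:**
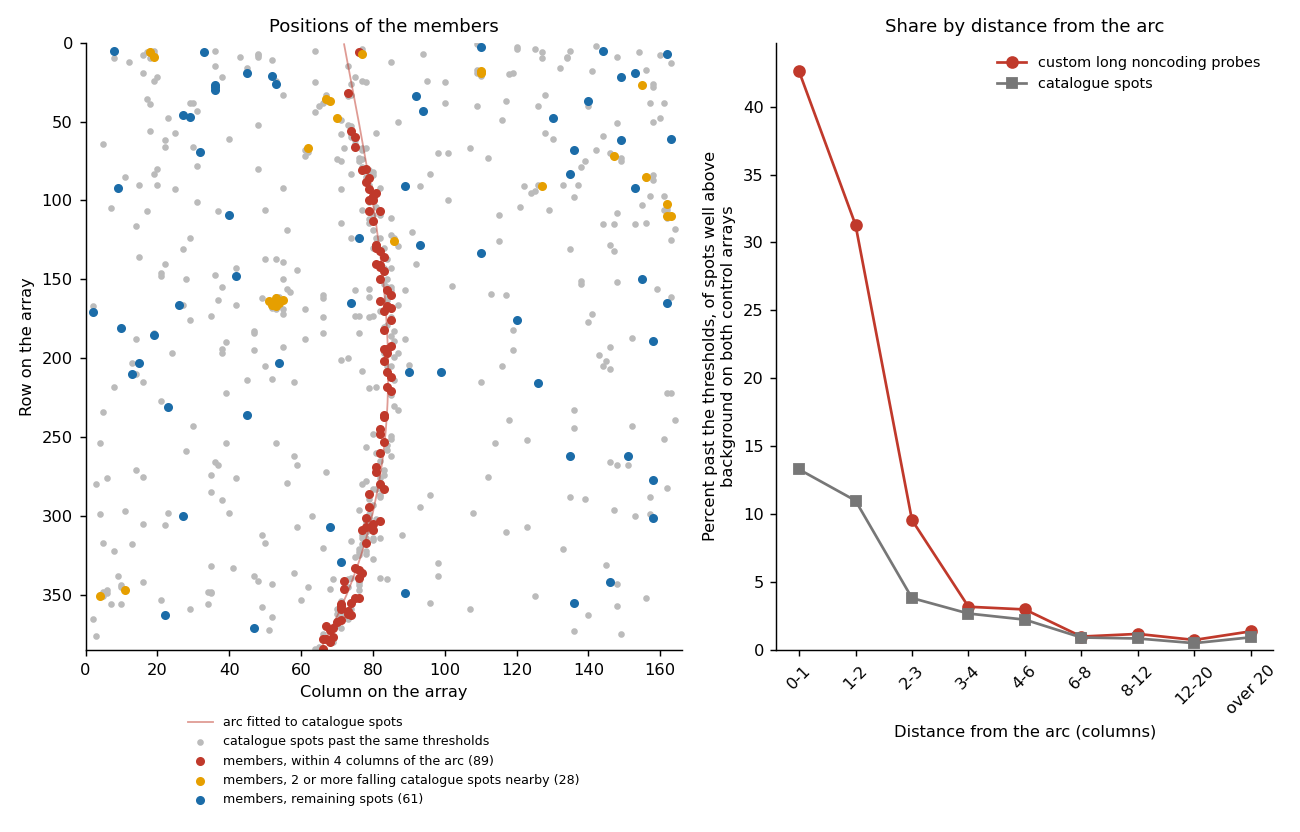
Left, position on the array (row and column of the printed grid) of the 178 members and, in grey, of catalogue spots past the same thresholds, with the arc fitted to catalogue spots; right, percentage of custom probes and of catalogue spots well above background on both control arrays that passed the thresholds, by distance from the arc in columns. The 89 members of the arc follow the line through all rows, and the share of members dropped from 42.6% in the nearest column to 1.38% beyond 20 columns.

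Near the arc the control arrays were brighter and the hairpin arrays dimmer than elsewhere. All custom spots were taken for this comparison, none of them chosen by its level or used to fit the course. Within 1 column of the arc, 41.8% and 42.5% of 292 custom spots were well above background on the control arrays, against 32.4% and 35.1% of 17461 spots beyond 20 columns. On the 4 hairpin arrays the shares were 27.4%, 30.5%, 26.0% and 21.6% near the arc and 32.6%, 33.7%, 32.6% and 30.0% far from it. The median level of these spots was -4.22 and -4.34 near the arc on the control arrays, against -5.14 and -4.97 far from it. On the arrays with the shGATA3 label it was -5.23 and -4.83 near the arc and -4.83 and -4.63 far from it. On the shTCF1 arrays it was -5.48 and -5.52 near the arc and -4.65 and -4.74 far from it. The rise on the control arrays and the drop on the hairpin arrays both widen the difference from control there. A further 28 members had at least 2 catalogue spots past the same thresholds within 4 rows and 3 columns of their own spot, and these are called local clusters here. Of the eligible custom probes 427 (6.06%) lay in such places. One patch, in rows 160 to 170 and columns 50 to 56, held 9 members among 13 eligible custom probes. The remaining 61 members were 0.981% of the 6219 eligible custom probes outside the arc and the local clusters, where the mirrored thresholds held for 54 probes (0.868%). With the arc left out, 89 of 6646 eligible custom probes (1.34%) were members.

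The control arrays also disagreed more for the members than for other probes. Their levels differed by more than 1 on the log2 scale for 33 members (18.5%) and for 182 of the 7041 eligible custom probes (2.58%). In the arc both controls were bright together, and 7 of 89 members (7.87%) had such a gap. In the local clusters it was 11 of 28 (39.3%) and among the remaining members 15 of 61 (24.6%), so that for those members 1 control array carried much of the difference. When control replicate 1 was left out, 570 custom probes met the rule, and when control replicate 2 was left out, 684 did, since 1 array then had to be well above background and had to be undercut. Leaving out any 1 hairpin array gave 178 to 211.

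Of the 12 members with the largest measured mean difference from control, 10 lay in local clusters, 1 in the arc and 1 on the remaining spots, all 12 were below background on every hairpin array, and the control arrays differed by more than 1 for 8 of them. Their falls are known only as bounds, at least 2.10-fold to 5.33-fold on the arrays with the shGATA3 label, and so cannot be ranked. Higher values were measured elsewhere, such as the 8.54-fold fall of TCONS_00029178 on the arc and the 6.27-fold fall of ENST00000539404 on the remaining spots. TCONS_00018611 had levels of -1.69 and -1.61 on the control arrays and -5.85, -5.84, -5.68 and -5.54 on the hairpin arrays. With the limit used here this bounds its fall at 4.96-fold on the arrays with the shGATA3 label and 4.36-fold on the shTCF1 arrays. Its control arrays were alike, and its spot was in the patch of 9 members with 4 falling catalogue spots around it. TCONS_00021107, also in the patch, had -0.36 and -2.72 on the control arrays and between -5.84 and -4.52 on the hairpin arrays. ENST00000506172, from the same patch, had 0.28 and -3.54 on the control arrays and between -5.84 and -3.76 on the hairpin arrays. For both of these the control arrays lay further apart than the dimmer control array lay from the brightest hairpin array. ENST00000509228 was the one of the 12 on the remaining spots, with -1.09 and -2.06 on the control arrays and between -5.70 and -5.37 on the hairpin arrays, a fall of at least 5.22-fold and 4.59-fold. Its spot was in row 28 of column 36, and the 1 falling catalogue spot near it in row 29 of that column. The members TCONS_00017248 and TCONS_00012660 lay in rows 27 and 30 of the same column. Local clusters were counted on catalogue spots alone, so nearby members did not place it in one. The others of the 12 were ENST00000414767, TCONS_00015442, ENST00000434563, ENST00000561392, TCONS_00018097, ENST00000439700, TCONS_00004713 and ENST00000514222, with bounds of 2.10-fold to 4.62-fold on the arrays with the shGATA3 label and 1.85-fold to 4.06-fold on the shTCF1 arrays. ENST00000439700, on the arc, had control levels of -2.98 and -2.79.

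Of the 51 members measured throughout, 26 lay on the arc, 4 in local clusters and 21 on the remaining spots. The 26 on the arc were 1.89-fold to 8.54-fold lower on the arrays with the shGATA3 label and 1.82-fold to 5.63-fold lower on the shTCF1 arrays. The strongest of them was TCONS_00029178, with 0.52 and 1.04 on the control arrays, -2.78 and -1.85 on the arrays with the shGATA3 label and -1.59 and -1.84 on the shTCF1 arrays. ENST00000448806, the second brightest member, had 1.33 and 1.30 on the control arrays, -0.10 and -0.22 on the arrays with the shGATA3 label and 0.12 and -0.27 on the shTCF1 arrays. In both the highest hairpin array lay more than 1 below the lowest control array, and both spots lay on the arc with 2 and 3 falling catalogue spots around them. What the arc adds to such bright probes was not tested.

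The 21 members that the scanner measured throughout and that lay outside the arc and the local clusters give the clearest measurements of the group. They were 1.75-fold to 6.27-fold lower on the arrays with the shGATA3 label, with a median of 2.27, and 1.77-fold to 4.28-fold lower on the shTCF1 arrays, with a median of 2.15. In 19 of them the control arrays differed by less than 0.5. TCONS_00028249 was the brightest of all members, with 2.08 and 1.78 on the control arrays, 0.86 and 0.48 on the arrays with the shGATA3 label and -0.03 and -0.30 on the shTCF1 arrays. Its groups did not overlap, and the falls were 2.39-fold and 4.28-fold. In the deposited value table its difference on the arrays with the shGATA3 label turned to 0.95 on the log2 scale. ENST00000531077, next in brightness after ENST00000448806, had 1.28 and 1.19 on the control arrays, 0.23 and -0.01 on the arrays with the shGATA3 label and 0.17 and 0.29 on the shTCF1 arrays. Its fall was close to 2-fold in each group, 2.18-fold and 2.00-fold, and the hairpin groups overlapped each other. ENST00000544983 had 0.67 and 0.39 on the control arrays, -0.85 and -0.47 on the arrays with the shGATA3 label and -1.26 and -1.07 on the shTCF1 arrays. ENST00000411599, which also carries the identifier TCONS_00017881, had 0.19 and 0.18 on the control arrays, -1.39 and -0.99 on the arrays with the shGATA3 label and -1.11 and -1.07 on the shTCF1 arrays. ENST00000554010 had 0.59 and 0.37 on the control arrays, and its 4 hairpin arrays lay between -0.69 and -0.64. The spread over those 4 arrays was smaller than the gap between its control arrays. TCONS_00005969 and ENST00000412740 were the exceptions in the quality of the controls, with -0.11 against -1.98 and -0.74 against -1.89.

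**Figure D3:**
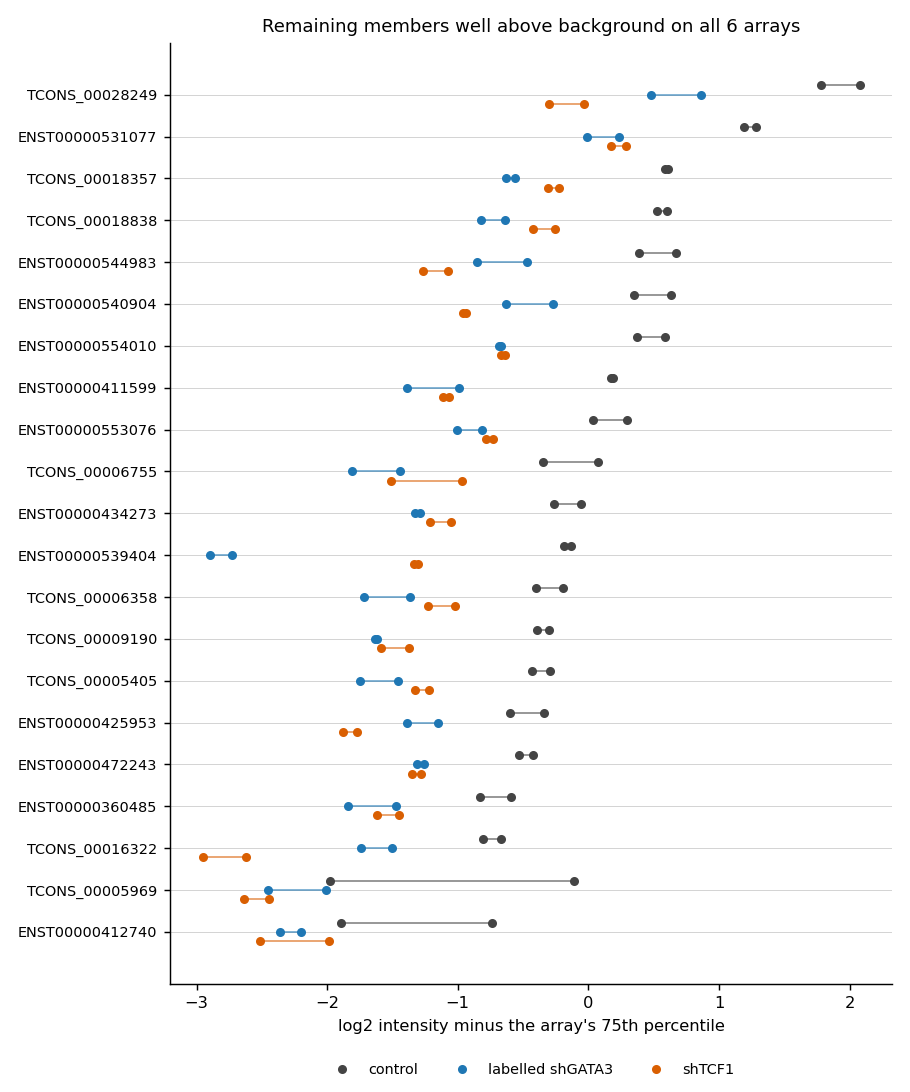
Level of each of the 21 members measured on all 6 arrays that lay outside the arc and the local clusters, as log2 intensity minus the array's 75th percentile; points are arrays, and a line joins the 2 arrays of a group. All 4 hairpin arrays lie left of both control arrays for each probe, as the rule requires, and the control arrays of TCONS_00005969 and ENST00000412740 lie more than 1 apart.

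The members at the edge of the rule had falls that replicate spread could move across it. Just inside were TCONS_00013898, ENST00000425953 and ENST00000472243, whose smaller fall was 0.803, 0.805 and 0.805 on the log2 scale. Just outside were ENST00000430166, TCONS_00005058 and ENST00000455703, with 0.797, 0.797 and 0.792. At a threshold of 0.6, 251 probes met the rule, and at 1.0, 139 did. The share of eligible probes that were members fell with the control level, from 3.05% below a level of -3 and 3.42% between -3 and -2 to 1.18% above 0. Outside the arc it was 1.34%, 1.87% and 0.734% for the same levels, and inside the arc 29.8%, 29.2% and 9.59%.

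The rule set no criterion on the difference between the arrays with the shGATA3 label and the shTCF1 arrays, which was tested. It did use the means of both hairpin groups, and the fit takes its spread from all 6 arrays, the control arrays included. The test asks whether a member fell by different amounts under the 2 hairpins. One member had a spot marked as an outlier and was not fitted, and of the other 177, 11 differed (limma, adjusted p below 0.05 over 31134 probes, n = 2 per group), which is 6.21% against 5.35% of all tested probes. These shares are close and are not read as a result about the members. At an unadjusted p below 0.05 the count was 34 (19.2%), against 7166 of all tested probes (23.0%). The median difference over the members was 0.01 and the median absolute difference 0.37, where all tested probes had -0.01 and 0.20. Every member passed the background filter of the fit on the control arrays, where the rule had required it. Of the 68 tested that also passed it on both arrays of a hairpin group, 6 differed (8.82%), with 21 at an unadjusted p below 0.05 (limma, 30.9%). A probe could enter these 68 through the hairpin group where it was brighter, so this share is not read as a result. The others passed only through the control arrays, so their hairpin levels were partly below background. Of the 11, this holds for TCONS_00013398, TCONS_00010364, ENST00000535893, ENST00000527828 and ENST00000560503. Among the 51 members measured on all arrays, 2 differed (3.92%), with 14 at an unadjusted p below 0.05 (limma, 27.5%). The count of 11 rested on single arrays, since it was 2 when shGATA3 replicate 2 was left out, 6 when shGATA3 replicate 1 was and 6 when shTCF1 replicate 2 was. It was 8 when either control array was left out.

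Of the 11, 7 lay on the arc, and all of those had the higher level on the arrays with the shGATA3 label. The eligible custom probes of the arc as a whole leaned the same way. Their median difference from control was -0.38 on the arrays with the shGATA3 label and -0.59 on the shTCF1 arrays. What the arc adds to the differences of the 7 was not tested. ENST00000527828 and ENST00000560503 were below background on all 4 hairpin arrays, so their differences give no fold. For TCONS_00013398, TCONS_00010364 and ENST00000535893, 1 of the 2 arrays with the shGATA3 label and no shTCF1 array was well above background. The bounds were 1.23-fold, 1.03-fold and 1.11-fold, and a higher limit could remove them. TCONS_00003510 was at least 1.62-fold higher on the arrays with the shGATA3 label. ENST00000456559 was 2.42-fold higher there (difference 1.27 ± 0.13 SE, limma, adjusted p = 0.00981), with -2.13 and -1.99 on the arrays with the shGATA3 label and -3.22 and -3.44 on the shTCF1 arrays, of which 1 was well above background. Without the arc, 4 members differed among 88 tested (4.55%), against 5.35% of all tested probes.

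Those 4 outside the arc had no falling catalogue spot near them. ENST00000539404 was lower on the arrays with the shGATA3 label than on the shTCF1 arrays, with -2.90 and -2.73 against -1.31 and -1.34 and with -0.19 and -0.14 on the control arrays. Between the hairpins it differed by -1.49 ± 0.11 (SE), a 2.81-fold change (limma, adjusted p = 0.00347), and its falls from control were 6.27-fold and 2.23-fold. TCONS_00006398 went the same way, with -3.93 and -3.77 on the arrays with the shGATA3 label, neither well above background, and -2.46 and -2.57 on the shTCF1 arrays, a change of at least 2.53-fold (limma, adjusted p = 0.0116). TCONS_00016322 went the other way, with -1.74 and -1.50 on the arrays with the shGATA3 label, -2.62 and -2.95 on the shTCF1 arrays and -0.67 and -0.81 on the control arrays. This amounts to 1.16 ± 0.16 (SE) or 2.24-fold (limma, adjusted p = 0.0205). ENST00000457162 was at least 1.69-fold higher on the arrays with the shGATA3 label (limma, adjusted p = 0.0190), with -3.03 and -2.98 there and -3.85 and -3.91 on the shTCF1 arrays. Over the alternative settings other than the deposited value table the adjusted p of ENST00000539404 ranged from 0.000436 to 0.0293 and stayed below 0.05 in all 14, whereas that of TCONS_00016322 ranged from 0.00503 to 0.0957, that of TCONS_00006398 from 0.00757 to 0.0615 and that of ENST00000457162 from 0.0136 to 0.447.

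**Figure D4:**
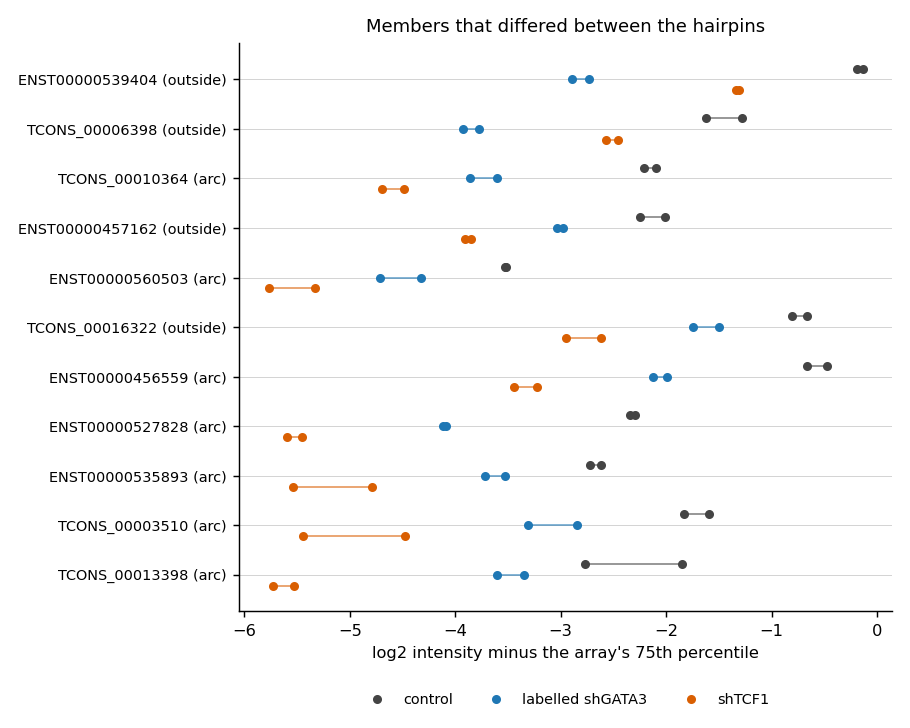
Level on each array of the 11 members that differed between the arrays with the shGATA3 label and the shTCF1 arrays, as log2 intensity minus the array's 75th percentile, with points for arrays and lines joining the 2 arrays of a group; arc or outside gives the place of the spot. ENST00000539404 and TCONS_00006398 are lower on the arrays with the shGATA3 label, and the other 9 are lower on the shTCF1 arrays. ENST00000527828 and ENST00000560503 were below background on all 4 hairpin arrays. TCONS_00013398, TCONS_00010364 and ENST00000535893 were well above background on only 1 hairpin array.

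One member could be checked on a second probe. Catalogue probes carried the same Ensembl transcript identifier as a member in 3 cases. For ENST00000413304 and ENST00000420365 the catalogue probe was below background on all 6 arrays, so it could not show a change. For ENST00000360485 it was well above background on all 6, at another place of the array outside the arc, with 1 falling catalogue spot among the 37 others around it. This catalogue probe was not used by the rule. Its level was -0.48 and -0.43 on the control arrays, -1.88 and -1.68 on the arrays with the shGATA3 label and -1.43 and -1.22 on the shTCF1 arrays. The groups did not overlap, and the probe was 2.51-fold lower on the arrays with the shGATA3 label (difference -1.33 ± 0.13 SE, limma, adjusted p = 0.0108) and 1.83-fold lower on the shTCF1 arrays (difference -0.87 ± 0.13 SE, limma, adjusted p = 0.0169). The custom probe of the same transcript had -0.83 and -0.59, then -1.84 and -1.47, then -1.62 and -1.45 in the same order. It was one of the smaller falls of the group. The catalogue probe was lower than control in all 15 alternative settings for both hairpins, but its adjusted p was below 0.05 in 11 of the 15 for the arrays with the shGATA3 label and in 9 for the shTCF1 arrays. It passed 0.05 without control replicate 1 (0.0678 and 0.0848), without control replicate 2 (0.0532 and 0.0797), with no filter on dim probes (0.0601 and 0.0709) and in the deposited value table (0.568 and 0.710). On the shTCF1 arrays it also did so without shTCF1 replicate 1 (0.0669) or 2 (0.0502).

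Some members carried neighbouring TCONS numbers. Assembly programs number transcripts along the genome, so close numbers often belong to one locus, but the positions of these transcripts were not analysed here. Of the 101 members with a TCONS identifier, 15 stood within 2 numbers of another member and formed 7 sets. Among the 88 eligible custom probes within 2 numbers of a member, 15 were members (17.0%), where 2.53% of all eligible custom probes were. With the arc left out on both sides it was 4 of 37 (10.8%), against 1.34% of the eligible custom probes outside the arc. With the local clusters left out as well it was 2 of 26 (7.69%), against 0.981%. Those 2 were a single pair, TCONS_00006753 and TCONS_00006755, each counted as the neighbour of the other. The 4 were this pair with TCONS_00018356 and TCONS_00018357. TCONS_00006753 lay 4 to 6 columns from the arc, where 2.99% of eligible custom probes were members. TCONS_00006755, in row 210 and column 13, lay beside a falling catalogue spot in row 210 and column 14. By number the pair stands between 2 probes that are not members. TCONS_00006752 differed from control by 0.08 and 0.12, and TCONS_00006756, in row 208 and column 14, by -1.10 and -0.88. These shares come from values that the rule used and were not tested. Probes of one locus may share transcripts and are not replicates, and the numbering was noticed after the values had been seen.

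The most extended set was TCONS_00018356, TCONS_00018357 and TCONS_00018359. TCONS_00018357, outside the arc with no falling catalogue spot near it, had 0.61 and 0.59 on the control arrays, -0.63 and -0.56 on the arrays with the shGATA3 label and -0.31 and -0.22 on the shTCF1 arrays. TCONS_00018356, in a local cluster, had 0.31 and 0.15 on the control arrays and -1.26 to -0.83 on the hairpin arrays. TCONS_00018359, on the arc, had -1.44 and -1.38 on the control arrays and -2.69 to -2.47 on the hairpin arrays. The 3 spots are far apart on the array, but that of TCONS_00018356 was in a local cluster and that of TCONS_00018359 on the arc. All 3 differed from control by at least 0.8 in both groups because the rule required it. The probe between them by number, TCONS_00018358, had -2.60 and -2.79 on the control arrays and -2.79 to -2.37 on the hairpin arrays, so its groups overlapped. A second set paired TCONS_00018838, outside the arc, with TCONS_00018839, on it. TCONS_00018838 had 0.52 and 0.60 on the control arrays and -0.82 to -0.26 on the hairpin arrays, and TCONS_00018839 had -1.38 and -1.29 on the control arrays and -3.11 to -2.87 on the hairpin arrays. In another set TCONS_00006358, outside the arc, had -0.40 and -0.19 on the control arrays and -1.72 to -1.02 on the hairpin arrays, and TCONS_00006356, on the arc, had -0.48 and -0.52 on the control arrays and -3.02 to -1.75 on the hairpin arrays.

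**Figure D5:**
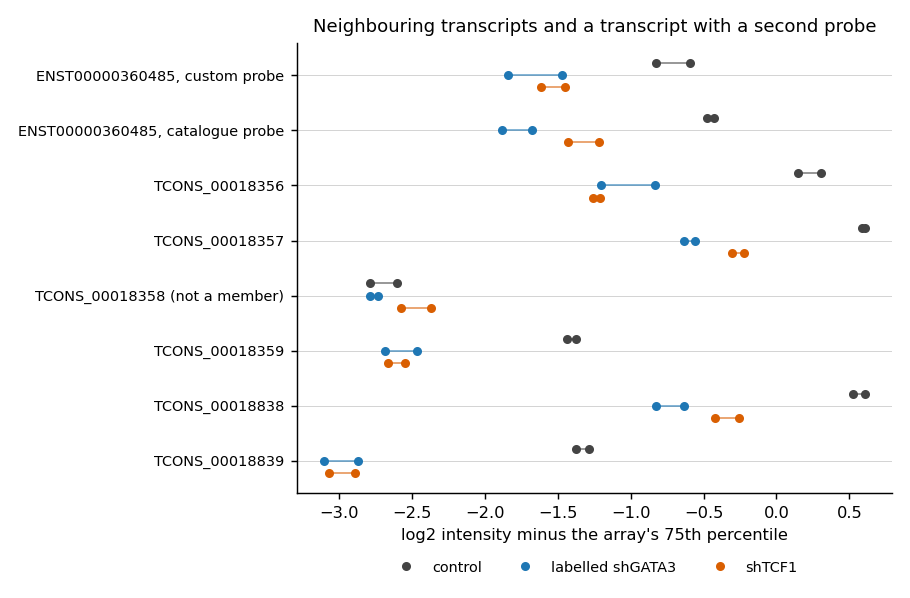
Level on each array, as log2 intensity minus the array's 75th percentile, of the custom and the catalogue probe of ENST00000360485 and of probes with neighbouring TCONS numbers; points are arrays, and a line joins the 2 arrays of a group. Both probes of ENST00000360485 lie lower on all hairpin arrays than on the control arrays, and TCONS_00018358, which is no member, does not.

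Genes that act on long noncoding RNAs as a class mostly did not pass the test. Of 34 genes of the RNA exosome and other RNA decay factors, 32 were tested, and none was called on the arrays with the shGATA3 label, where 5.89% of all tested probes were (limma; 6 at an unadjusted p below 0.05). On the shTCF1 arrays, where 15.7% of all tested probes were called, 1 was (limma; 5 at an unadjusted p below 0.05). This was XRN2, the nuclear exonuclease that ends transcription behind the polymerase. Its level was 2.03 and 2.02 on the control arrays, 1.66 and 1.54 on the arrays with the shGATA3 label and 1.28 and 1.35 on the shTCF1 arrays, a fall of 0.71 ± 0.10 (SE, adjusted p = 0.0154). The median difference of these genes was -0.04 and -0.13, where all tested probes had 0.05 and 0.04. Of 30 tested genes of 3-prime end processing, termination and export, none was called on the arrays with the shGATA3 label (limma; 3 at an unadjusted p below 0.05). On the shTCF1 arrays 1 was (8 at an unadjusted p below 0.05). This was CSTF3, a subunit of the cleavage stimulation factor, with 3.64 and 3.69 on the control arrays and 3.12 and 2.91 on the shTCF1 arrays. NUDT21 was near the threshold in both groups, with differences of -0.62 on the arrays with the shGATA3 label and -0.46 on the shTCF1 arrays (limma, adjusted p = 0.0516 and 0.0626).

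Named long noncoding RNAs with a RefSeq accession went in both directions. Of 50 listed, 33 were tested, with 1 higher and 3 lower on the arrays with the shGATA3 label and 3 higher and 3 lower on the shTCF1 arrays, and their median differences were -0.04 and 0.00. MIR17HG, the host transcript of the miR-17-92 cluster, was the one that fell in both. It had 2.79 and 2.39 on the control arrays, 1.25 and 1.63 on the arrays with the shGATA3 label and 0.63 and 0.48 on the shTCF1 arrays (falls of 1.15 ± 0.19 and 2.03 ± 0.19, SE, limma, adjusted p = 0.0369 and 0.00917), and its spot was outside the arc. FAM30A fell by 3.05 on the arrays with the shGATA3 label and rose by 0.83 on the shTCF1 arrays. LINC00892 fell by 3.51 on the shTCF1 arrays and differed by -0.02 ± 0.24 (SE) on the arrays with the shGATA3 label, and NORAD fell by 0.59 on the arrays with the shGATA3 label. RMRP, the RNA component of a ribonuclease, rose by 0.80 and 1.30.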

How the data were processed

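Total RNA of 6 RPMI-8402 samples was hybridised to custom 1-colour Agilent arrays, and the deposited scanner files hold the processed intensity of each spot, background-subtracted by the authors with Feature Extraction. The authors also deposited a value table on a log2 scale, normalised with VSN according to the methods. Some of its columns, 2 in number, correlated best with another array of the same group and one with no array above r = 0.827, so it served as an alternative.

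Spots of a probe were averaged (57176 probes), log2 was taken and each array's 75th percentile subtracted, the scale that the choice of members fixes. Members and gene lists were chosen with earlier results of these data known. The 31134 probes that passed the background call on each array of some group were fitted with limma 3.58.1 in R 4.3.3 on all 6 arrays, two-sided and with Benjamini-Hochberg adjustment. The fit has 3 residual degrees of freedom, p-values measure the spread between 2 samples per group, and the number of arrays limits precision. Symbols came from RefSeq accessions (25742 probes). Named are the targets, the 12 largest falls, the members that differed between hairpins, the 3 brightest, those at the threshold and up to 4 genes per list; positions of neighbouring genes were not analysed here. Members named beyond these rules were chosen after their values were seen. The arc is a cubic of column on row, fitted to catalogue spots past the thresholds in columns 60 to 92, also chosen after seeing the data. The fitting was tested on simulated data. Alternatives were VSN, quantile and normexp processing, another percentile set, the deposited table, other filters, an intensity trend, a replicate block and leaving out each array.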

Additional observations from a re-analysis of the deposited data

How the results depend on the processing

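The number of probes that met the rule was 178 with the 75th percentile and stayed within 1.5 times of it under the VSN model, quantile normalization, another percentile set, either threshold and a percentile over spots. With a normexp background and an offset of 50 it was 14, of which 13 were members, all measured on all 6 arrays, 7 of them on the arc and 5 on the remaining spots (TCONS_00028249, ENST00000544983, ENST00000411599, ENST00000554010 and ENST00000531077). The offset is added to every intensity and so compresses the differences of dim probes. The deposited table gave 117, of which 52 were members. Requiring all 6 arrays to be well above background left 51. Chosen after seeing the data, leaving out the arc gave 89, an arc of 8 columns each side 81, and the arc and the local clusters 61. Leaving out 1 array gave 178 to 684.

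Of probes called in the direct comparison there were 1666, with 2865 under normexp, 3262 with an intensity trend, 385 with no filter on dim probes and 550 to 831 without 1 array. For the arrays with the shGATA3 label against control there were 1833, with 12236, 3931 and 151 under the same settings and 193 to 1028 without 1 array. For shTCF1 against control there were 4899, with 16289 under normexp, 225 with no filter and 291 to 4329 without 1 array. The deposited table gave 0 calls by limma in each (1642, 1814 and 2652 at an unadjusted p below 0.05). Of the members, 11 were called directly, with 5 under normexp, 0 with the deposited table (11 at an unadjusted p below 0.05), 4 of 51 when all arrays had to be bright, 2 with no filter, 4 without the arc and 2 to 11 without 1 array. The replicate numbers did not pair the samples (correlations of deviations -0.04, -0.01 and 0.04), and with the replicate number as a block the counts were 889, 822 and 2846 probes and 9 members. Slide and scan could not be used as a block, since all arrays share them.

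Among the named members the sign turned under normexp for ENST00000561392 on shTCF1 (0.012), ENST00000535893 on shGATA3 (0.014) and ENST00000560503 on both (0.25 and 0.18), and with the deposited table for ENST00000514222 (0.011), ENST00000456559 (0.30), ENST00000535893 (0.97) and TCONS_00028249 (0.95), all on shGATA3. The cause was not tested.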
